A study of Mus musculus with 4 samples.

Results

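The aquaporins are membrane channels that pass water and, in some members, glycerol or ions. Their messenger RNA was examined here in total RNA from mouse glomeruli on 4 Affymetrix arrays, 1 array per group. The members were 9 genes, Aqp1 to Aqp8 and Aqp11, out of 18193 genes with a probe set of a single annotated symbol, and they were represented by 20 probe sets. A gene's main value is that of its brightest probe set by the mean over the 4 arrays, and every other probe set is given as well. Of the 9 genes, 7 lay in the brighter 50% of all genes by that mean (from a log2 value of 8.04 upwards, which is an intensity near 247). Aqp5 and Aqp8 did not, and are given as values from which no direction is read.

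In the kidney, water leaves the tubule lumen through aquaporins. Aqp1 is the constitutive channel of the proximal tubule and the descending thin limb, and it is also found in red cells and some endothelia. In the collecting duct the hormone vasopressin raises cyclic AMP through its V2 receptor, Avpr2. This moves the Aqp2 protein to the apical membrane and raises transcription of its gene, and water then leaves the principal cell through Aqp3 and Aqp4 in the basolateral membrane.

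All 4 groups were male mice with 1 kidney removed. Wild-type (WT) animals and animals with a systemic knockout (KO) of GC-A, the natriuretic peptide receptor that makes cyclic GMP and is encoded by Npr1, were each studied under a control treatment and under ALDO. Control mice received 2% EtOH under the skin and normal food, and ALDO mice received aldosterone under the skin and food with 6% salt, for 3 weeks per the study design. Strain, age, the vehicle of aldosterone, the deleted part of Npr1 and whether an array held RNA of a single mouse or of several are not stated in the labels used here. The loss of GC-A was systemic, so the model does not separate glomerular, tubular and circulatory loss. With 1 array per group there is no replicate and no test, the small number of arrays sets the precision, and a difference is a log2 difference of (intensity + 16) between 2 arrays. Where 4 intensities stand together, their order is WT and KO under control treatment, then WT and KO under ALDO. As a technical yardstick, 2 bright probe sets of the same gene on the same arrays gave differences that lay apart by a median of 0.13 to 0.16 in the 4 comparisons of array pairs, over 3327 genes, which says nothing about the spread between animals.

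The Npr1 probe set was dim on all arrays, at 92.6, 108, 60.5 and 23.4. As its place relative to the deletion is not known here, it does not check the genotype labels. The label "glomeruli" was read against podocyte markers: 6 of 8 had a probe set and all 6 were bright, among them nephrin, Nphs1, at 1675 to 1899. Proximal tubule markers were bright as well (13 of 13 with a probe set), so the RNA held tubular transcripts, and for every aquaporin a difference in the number of tubule cells carried along cannot be told apart from a difference in RNA per cell. The summed intensity of the proximal tubule list was 292890, 271135, 276561 and 246590. That of the podocyte list, with fewer genes, was 21360, 20338, 23736 and 25914, so the proximal tubule markers had by far the larger signal. As probe sets differ in affinity, these sums do not give shares of cells. The summed intensity of the principal cell list was 11936, 15548, 16308 and 18301. That of the intercalated cell list was 5144, 9127, 7578 and 10955, and that of the macrophage list 6226, 12732, 6374 and 14453. The 3' to 5' signal ratio, a sign of RNA quality, was lower on both KO arrays, with 1.67 and 1.61 against 1.86 and 1.87 for beta-actin and 0.741 and 0.744 against 0.785 and 0.778 for Gapdh. The part of cell mix and RNA quality in the genotype differences was not tested.

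Upstream sequence is shown for 3 members because Aqp2 and Aqp3 went together over the arrays and Aqp6, which lies on chromosome 15 with Aqp5 between it and Aqp2, did not go with them. The sequences are the 250 bases before the RefSeq start, 5′ to 3′ in the direction of transcription, from the table of assembly GRCm38.p6: chr15:99578806-99579055 on the plus strand for Aqp2, chr4:41098184-41098433 on the minus strand for Aqp3 and chr15:99600950-99601199 on the plus strand for Aqp6. Capitals mark matches to any of 4 motifs on either strand.
Aqp2: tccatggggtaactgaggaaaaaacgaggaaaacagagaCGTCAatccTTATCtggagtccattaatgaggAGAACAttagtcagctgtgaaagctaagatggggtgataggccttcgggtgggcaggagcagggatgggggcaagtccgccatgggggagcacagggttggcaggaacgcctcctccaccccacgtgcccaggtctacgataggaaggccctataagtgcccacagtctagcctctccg
Aqp3: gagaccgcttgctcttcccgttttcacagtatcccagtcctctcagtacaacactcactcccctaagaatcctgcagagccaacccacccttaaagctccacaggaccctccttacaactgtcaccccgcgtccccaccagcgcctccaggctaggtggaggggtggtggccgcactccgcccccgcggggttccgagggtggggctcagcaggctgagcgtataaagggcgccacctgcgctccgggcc
Aqp6: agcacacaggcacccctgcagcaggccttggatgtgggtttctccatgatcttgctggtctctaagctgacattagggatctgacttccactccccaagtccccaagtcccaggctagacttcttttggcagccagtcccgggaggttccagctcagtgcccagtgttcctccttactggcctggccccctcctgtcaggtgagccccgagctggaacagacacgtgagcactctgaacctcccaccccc
The first motif was CGTCA, the half-site of the cyclic AMP response element through which the kinase pathway of vasopressin can act on transcription. GATAA is the site of zinc finger factors such as Gata3, which principal cells express. Receptors for corticosteroids, aldosterone among them, bind pairs of the half-site TGTTCT. Factors of the NFAT family, to which the tonicity factor Nfat5 belongs, bind sites with the core TGGAAA. Each was also searched as its reverse complement. In windows of 300 bases, from 250 before to 50 after the start, they were found in 20.8%, 25.4%, 19.0% and 21.4% of 32851 mouse promoters. Entries were found for 8 of the 9 members, and not for Aqp4. The Aqp2 window held a cyclic AMP half-site 211 bases before the start, a GATA site 202 bases before it and a corticosteroid half-site 179 bases before it, none of which overlap. Aqp7 has 2 overlapping windows in the table. A GATA site 131 bases before the start and an NFAT core 234 bases before it lay in one, and a corticosteroid half-site in both, beginning at base 2 of the transcript by one start and 173 bases before the other. The windows of the other 6 members, Aqp3 and Aqp6 among them, held none of the 4 motifs, which says only that these letters are not there. Each motif occurs in about 19.0% to 25.4% of promoters, so these matches describe the sequence and are no evidence of binding.

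Aqp2, the vasopressin-regulated apical channel of the principal cell, stood out on a single array. Its intensity was 3407 (WT control), 3194 (KO control), 5412 (WT with ALDO) and 3261 (KO with ALDO). The WT ALDO array was thus high and the other 3 lay close together. WT ALDO exceeded WT control by 0.66, a 1.59-fold difference, and 136 of the 9097 bright genes had a difference at least as large. In KO mice the ALDO difference was 0.03 (-0.04 with arrays centred on their medians). Under ALDO the KO value was therefore 1.66-fold below WT (log2 difference -0.73), and 114 bright genes (1.25%) were at or below it, whereas under control treatment the genotypes differed by -0.09. The gene has a single probe set, so no second reading of this pattern was available, and a property of the WT ALDO array cannot be told apart from its group.

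Aqp3, which passes water and glycerol through the basolateral membrane, had its highest value on the same array. Its brightest probe set read 3179, 2353, 4315 and 2251. Both KO arrays were lower than both WT arrays. The genotype difference was -0.43 under control treatment and -0.93 under ALDO (1.91-fold lower), where 40 bright genes (0.440%) were at or below it. ALDO differed from control by 0.44 in WT and -0.06 in KO. The other probe sets of Aqp3 bear on how far this rests on one set of probes. Those at 1317, 877, 1749 and 795 and at 1202, 822, 1444 and 656 were also bright and kept the same order of the arrays, with KO below WT by 2-fold or more under ALDO in each (-1.12 in both). Their ALDO differences were 0.40 and 0.26 in WT and -0.14 and -0.32 in KO. With the mean of all 4 probe sets, the dim one included, the ALDO difference in WT was 0.19 and the genotype difference under ALDO -0.83. A further probe set was near the bottom of the scale, at 3.83 to 12.5, and is not read.

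**Figure D1:**
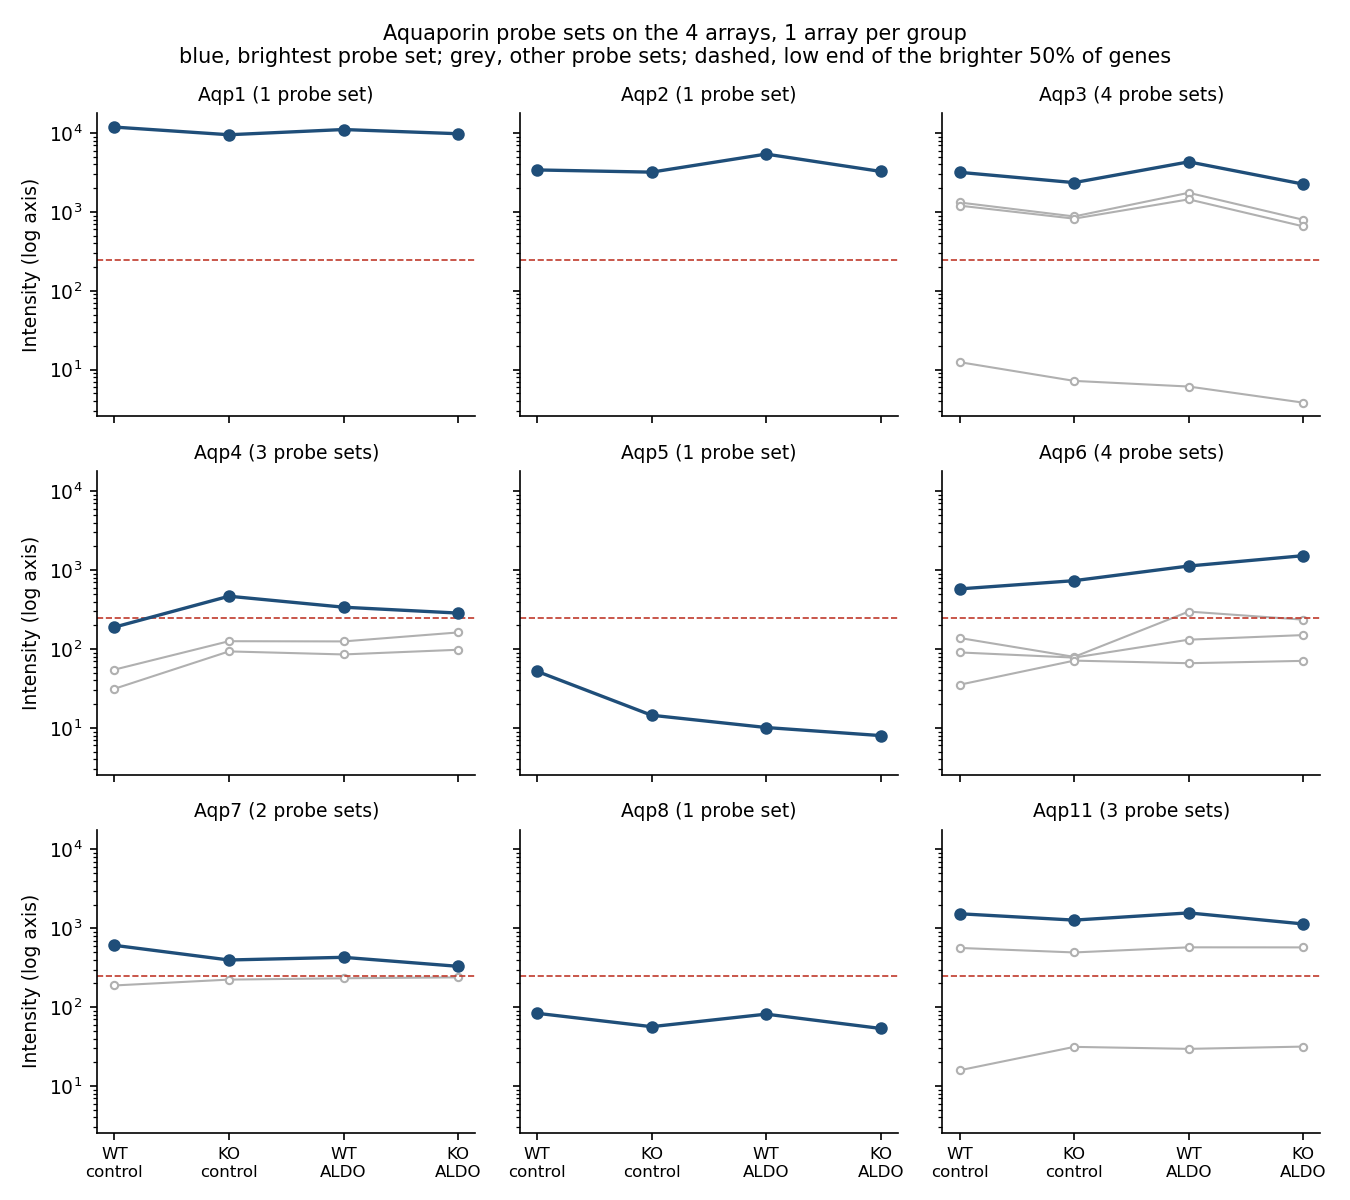
Intensity (log axis) of all 20 aquaporin probe sets on the 4 arrays, 1 array per group, with the brightest probe set of each gene in blue, the others in grey and a dashed line at the low end of the brighter 50% of genes (about 247). Aqp2 and Aqp3 peak in WT ALDO, Aqp6 is highest in KO ALDO, Aqp1 stays between 9517 and 11902, and Aqp5 and Aqp8 lie below the line.

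Aqp4, the other basolateral water channel, was dimmer and gave a different order. The brightest of its 3 probe sets read 189, 467, 339 and 285, close to the low end of the bright genes. WT control was the low array and KO control the high one. KO control exceeded WT control by 1.23 (2.35-fold), which made Aqp4 the only bright aquaporin of 7 at 2-fold or more in that comparison, where 0.967% of all bright genes were higher and 0.176% lower by that much. ALDO went with a higher value in WT (0.79) and a lower value in KO (-0.68), and only 5 of 9097 bright genes, Aqp4 included, had a difference between the ALDO effects as low as its -1.47.

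The 2 dimmer probe sets of Aqp4 agreed on part of this. They read 54.8, 126, 125 and 162, and 31.3, 93.2, 85.3 and 97.8. Each had WT control as its lowest array, with KO control higher by 1.0 and 1.21 and WT ALDO higher by 0.99 and 1.1. Neither had the lower value in KO ALDO, where the differences from KO control were 0.33 and 0.06. The low WT control value was thus common to the 3 probe sets, 2 of which were below the bright line and carry little weight. The opposite ALDO differences in the 2 genotypes were found in the brightest alone. With the mean of the 3 probe sets the ALDO difference in KO was -0.10.

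Aqp6, an intracellular channel of acid-secreting intercalated cells that conducts anions, was higher under ALDO in both genotypes. Its brightest probe set read 578, 735, 1127 and 1524, so the 2 ALDO arrays lay above the 2 control arrays. The ALDO difference was 0.94 in WT (1.92-fold) and 1.04 in KO (2.05-fold). In KO it was the only bright aquaporin of 7 at 2-fold or more, against 0.572% of bright genes that were higher and 0.132% that were lower by that much. With arrays centred on their medians the KO value was 0.97, with a pseudocount of 64 it was 0.99 and with the mean of the 4 probe sets 0.81, all under 2-fold. Of the bright genes, 36 were at or above its value in WT and 44 in KO. The genotype difference was 0.34 under control treatment and 0.43 under ALDO, but 0.06 and 0.09 with the mean of the 4 probe sets.

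Among the 3 dim probe sets of Aqp6, the one at 138, 79.5, 298 and 235 had ALDO differences of 1.03 in WT and 1.40 in KO, and the one at 90.5, 77.8, 131 and 150 had 0.47 and 0.82. The dimmest, at 35.2, 71.2, 66.1 and 70.7, had 0.68 and -0.01. All 4 probe sets had the higher ALDO value in WT, and 3 of 4 had it in KO. As 3 of the 4 were dim, the direction rests on the brightest set. They did not share a genotype difference, which under control treatment ranged from -0.69 to 0.77 over the 4.

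Aqp1 was bright throughout, at 11902, 9517, 11082 and 9804. The 2 KO arrays were below the 2 WT arrays. The genotype difference was -0.32 under control treatment (1.25-fold lower), with 688 bright genes (7.56%) at or below it, and -0.18 under ALDO. ALDO differed from control by -0.10 in WT and 0.04 in KO, both smaller than the typical gap between probe sets of a gene. The proximal tubule list, whose cells carry Aqp1, had medians of -0.21 and -0.31 in the same genotype comparisons, with 10 and 11 of its 13 bright members below 0. The lowest member in both was Slc7a13, an amino acid transporter (-0.55 and -1.13), and the highest Slc13a3, a dicarboxylate transporter (0.14 in each). The red cell list could be read in only 4 of its 8 genes, of which Bpgm alone was bright. The thin limb list had 4 of 6 genes with a probe set, of which only Cryab was bright. The endothelial list went the other way, with all 8 of its bright members above 0 in both genotype comparisons and medians of 0.43 and 0.43. The part of these cell types in the Aqp1 values was not tested.

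Aqp11, a channel of the endoplasmic reticulum whose loss leads to cystic proximal tubules in mice, read 1528, 1269, 1566 and 1135. Again the 2 KO arrays were lower than the 2 WT arrays, by -0.26 under control treatment and by -0.46 under ALDO. Its next probe set, also bright, read 564, 494, 574 and 573, and gave -0.18 and 0.00. The lower KO value under ALDO was therefore seen by only 1 of its 2 bright probe sets, and with the mean of its 3 probe sets the control difference was 0.04. ALDO differences were 0.04 in WT and -0.16 in KO by the brightest set, and 0.03 and 0.21 by the next. A further, dim set lay at 15.9 to 31.6. It alone was above 0 between genotypes under control treatment (0.57), and it enters the mean given above.

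Aqp7, a glycerol and water channel of the straight proximal tubule and of fat cells, had probe sets that disagreed. The brightest, an x_at set, a class whose probes can also bind other transcripts, read 608, 396, 429 and 329, with WT control highest. It gave genotype differences of -0.60 and -0.36 and ALDO differences of -0.49 in WT and -0.26 in KO. The other, at 189, 224, 232 and 239 just under the bright line, had WT control lowest and gave 0.23, 0.04, 0.28 and 0.09 in the same order. No direction can be given for Aqp7 from these arrays. Of 10 fat cell markers 8 had a probe set and 3 were bright, and these did not go together. The carbonic anhydrase Car3 read 11254, 7931, 2332 and 2917, with WT control highest as in the brightest Aqp7 set. Fabp4, a fatty acid binding protein found in capillary endothelium too, read 1536, 3110, 2811 and 4870, with WT control lowest. The lipase Lipe read 283, 227, 464 and 347, and adiponectin, Adipoq, was dim at 102, 227, 141 and 84.5. Their part in the Aqp7 values was not tested.

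Aqp5 and Aqp8 are best known from salivary, lacrimal and digestive glands. Aqp5 read 52.2, 14.5, 10.1 and 8.0, and Aqp8 read 83.7, 56.6, 81.6 and 53.7. All of these are below the array medians of 89.5, 97.7, 91.9 and 103. The remaining family genes with a probe set, the glycerol channel Aqp9, the pancreatic Aqp12 and the lens channel Mip, were also dim, at 2.63 to 32.6, 9.55 to 16.8 and 3.63 to 16.6 by their brightest probe sets.

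Counts over the 7 bright aquaporins depended on the choice of probe set, and they include Aqp7, for which no direction can be given. Under control treatment 5 of 7 were below 0 in KO by the brightest set, with a median of -0.26 against 0.00 over all 9097 bright genes. With the mean of all probe sets of a gene 4 of 7 were below 0, the median was -0.093 and Aqp11 was at 0.04. Under ALDO 6 of 7 were below 0, with a median of -0.36, which is the value of Aqp7, against 0.01. The mean of all probe sets gave 5 of 7 and a median of -0.16, with Aqp4 at 0.09, and the brightest 25% of genes gave -0.59. Aqp1, Aqp2 and Aqp3 were below 0 in both genotype comparisons with either choice (Aqp1 and Aqp2 have 1 probe set each). For Aqp2 the difference under control treatment (-0.09) was smaller than the typical gap between probe sets of a gene. None of the 7 reached 2-fold under ALDO by the brightest probe set (Aqp3 did, at -1.08, with arrays centred on their medians), where 1.26% of bright genes were higher and 0.352% lower by that much. ALDO against control gave 5 of 7 above 0 in WT, with a median of 0.44 against 0.01 and none at 2-fold, where 0.330% of bright genes were higher and 0.352% lower. That median was 0.19 with the mean of all probe sets, 0.24 in the brightest 25% and 0.035 with dim members included. In KO it gave 3 of 7 above 0, with a median of -0.06 against 0.01 (0.018 with the mean of all probe sets). Comparisons that share an array are not separate observations. The high WT ALDO values of Aqp2 and Aqp3 enter both the ALDO comparison in WT and the genotype comparison under ALDO.

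**Figure D2:**
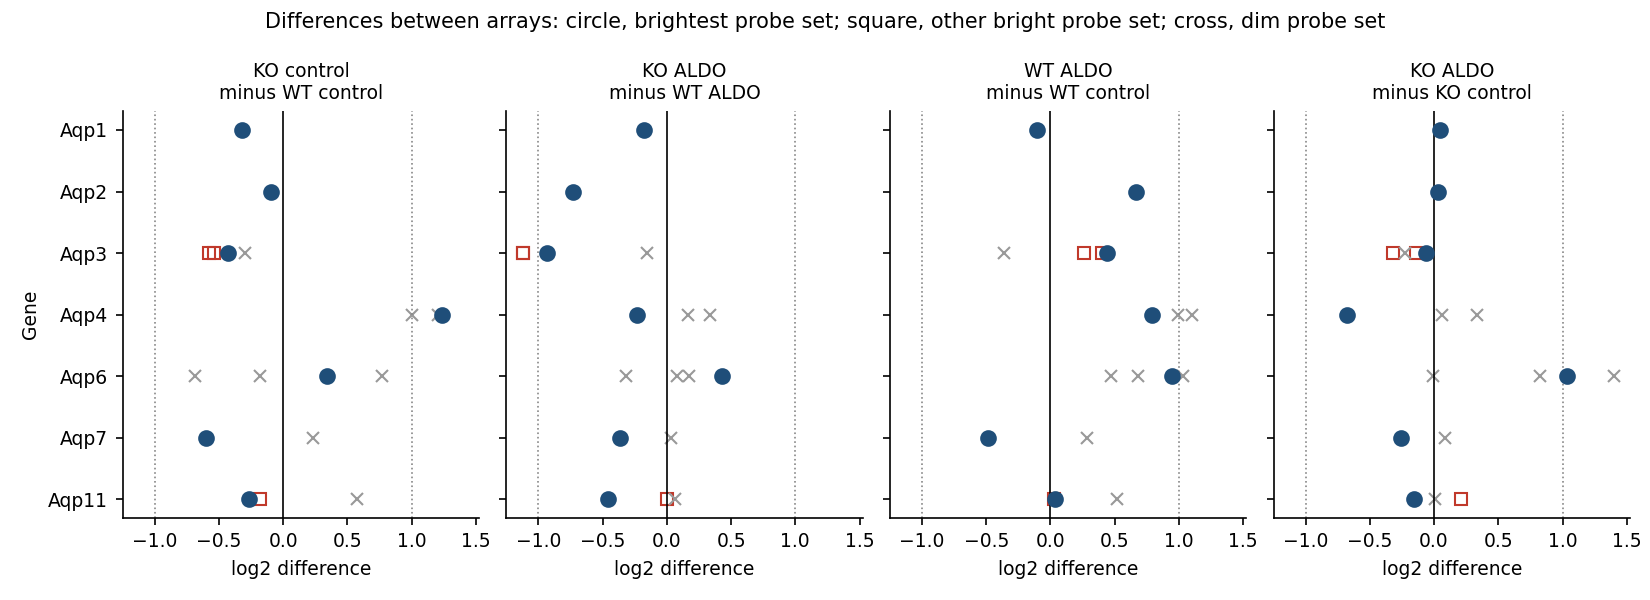
Log2 difference between arrays for the 7 bright aquaporins in 4 comparisons, with a circle for the brightest probe set, a square for another bright one, a cross for a dim one and dotted lines at 2-fold. The 3 bright Aqp3 sets lie together, at -0.93 to -1.12 in KO ALDO minus WT ALDO, whereas the sets of Aqp7 lie on both sides of 0 in every comparison.

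The 2 genotype comparisons share no array, nor do the 2 ALDO comparisons, so they can be set side by side. Aqp1, Aqp2 and Aqp3 were below 0 in both genotype comparisons, though Aqp2 by only -0.09 under control treatment. By the brightest set Aqp7 and Aqp11 were below 0 in both as well, while Aqp6 was above 0 in both and Aqp4 changed sides. The probe sets of each of these 4 genes disagreed in sign in at least 1 of the 2 comparisons. In each gene the set of the other sign was dim. The 2 bright sets of Aqp11 gave -0.26 and -0.18 under control treatment and -0.46 and -0.002 under ALDO. The difference between the ALDO effects (KO minus WT) was -0.64 for Aqp2, -0.50 for Aqp3, -1.47 for Aqp4, -0.19 for Aqp11, 0.09 for Aqp6, 0.15 for Aqp1 and 0.23 for Aqp7. For Aqp4 alone of the 7 it reached 2-fold, against 0.330% of bright genes lower and 0.594% higher by that much. No test of these differences is possible with 1 array per group.

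**Figure D3:**
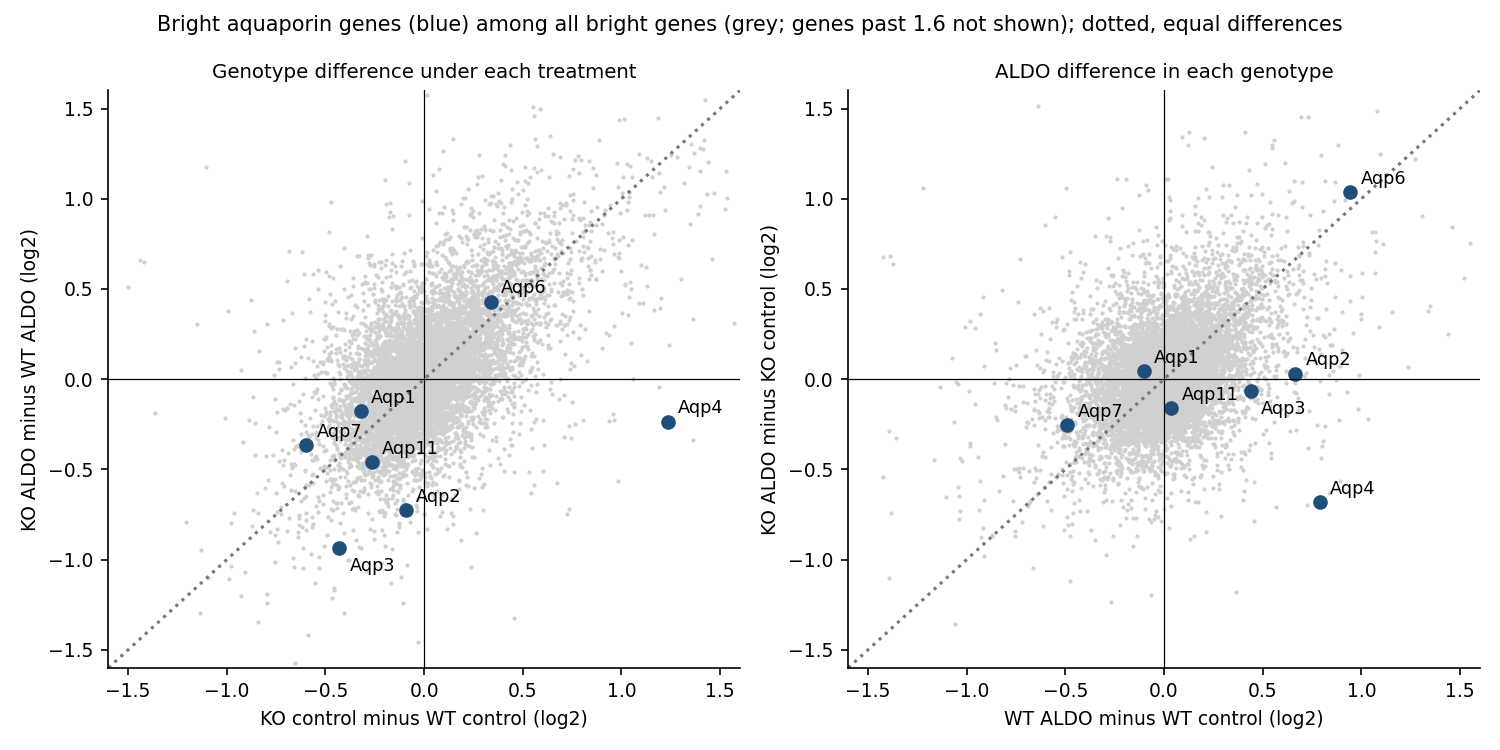
Each bright gene's genotype difference under control treatment against that under ALDO (left), and its ALDO difference in WT against that in KO (right), in log2, with the 7 bright aquaporins in blue, other bright genes in grey and a dotted line of equal differences. Aqp2 and Aqp3 lie right of 0 and near 0 on the vertical axis of the right panel (0.66 and 0.44 in WT, 0.03 and -0.06 in KO), Aqp6 lies near the dotted line and Aqp4 far from it.

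The collecting duct channels were next set beside other genes of their cells. Of 9 principal cell markers 8 were bright, and they did not all share a direction. Fxyd4, a regulator of the sodium pump in the principal cell, read 2556, 1763, 3446 and 1730, with genotype differences of -0.53 and -0.99 and an ALDO difference of 0.43 in WT and -0.03 in KO. It thus had the same order of arrays as Aqp3. The epithelial sodium channel subunits went the other way between genotypes: Scnn1g read 871, 2040, 1235 and 2599 (1.21 and 1.06), Scnn1a 534, 768, 549 and 1196 (0.51 and 1.1), and Scnn1b 340, 803, 520 and 715 (1.20 and 0.45). The potassium channel Kcnj1, the glucocorticoid-inactivating enzyme Hsd11b2 and the transcription factor Gata3 were above 0 in both genotype comparisons, with 0.40 and 0.35, 0.58 and 0.06, and 0.41 and 0.13. Gata3 was also listed as a marker of mesangial cells, so its values need not come from principal cells. The vasopressin receptor Avpr2 was at -0.27 and -0.20, from intensities of 660, 546, 801 and 696.

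Aqp2 and Aqp3 lay below the principal cell list as a whole in both genotype comparisons, whereas Aqp4 did not. The median of its 8 bright members was 0.46 under control treatment and 0.24 under ALDO, with 6 of 8 above 0 in each. The difference of Aqp2 from that median was -0.55 under control treatment and -0.97 under ALDO, and that of Aqp3 was -0.89 and -1.18. Aqp4 differed from it by 0.78 under control treatment and by -0.48 under ALDO. In WT, ALDO went with a median of 0.43 over the list, with all 8 above 0, so that Aqp2 exceeded it by 0.24 and Aqp3 by 0.01. In KO the list had a median of 0.22, with 6 of 8 above 0, and Aqp2 and Aqp3 differed from it by -0.19 and -0.29. A subtraction within arrays shows unequal differences and not which gene changed. Scnn1a, Scnn1b, Scnn1g, Hsd11b2 and Kcnj1 are also counted below among the aldosterone-linked sodium transport genes. The median of the principal cell list is therefore not a measure of cell number alone.

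Intercalated cell markers, the cells of Aqp6, were higher under ALDO in WT (9 of 9 bright members above 0, median 0.57) and in KO (8 of 9, median 0.32). In both they included the anion exchanger family members Slc4a9 (1.0 and 0.59) and Slc4a1 (0.90 and 0.60). Most were also higher in KO, 7 of 9 under control treatment and 8 of 9 under ALDO, with medians of 0.71 and 0.42. The ammonia channel Rhcg led at 1.40 and 1.16. Slc4a1 was at -0.0015 and -0.30 in the same comparisons, and Atp6v1b1 at -0.083 and 0.045. Aqp6 was above the median of the intercalated cell list in the ALDO comparisons (0.94 and 1.04). Between genotypes it was below that median under control treatment (0.34) and about level with it under ALDO (0.43). The list was not split by type of intercalated cell, so its median is not that of the acid-secreting cells alone.

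**Figure D4:**
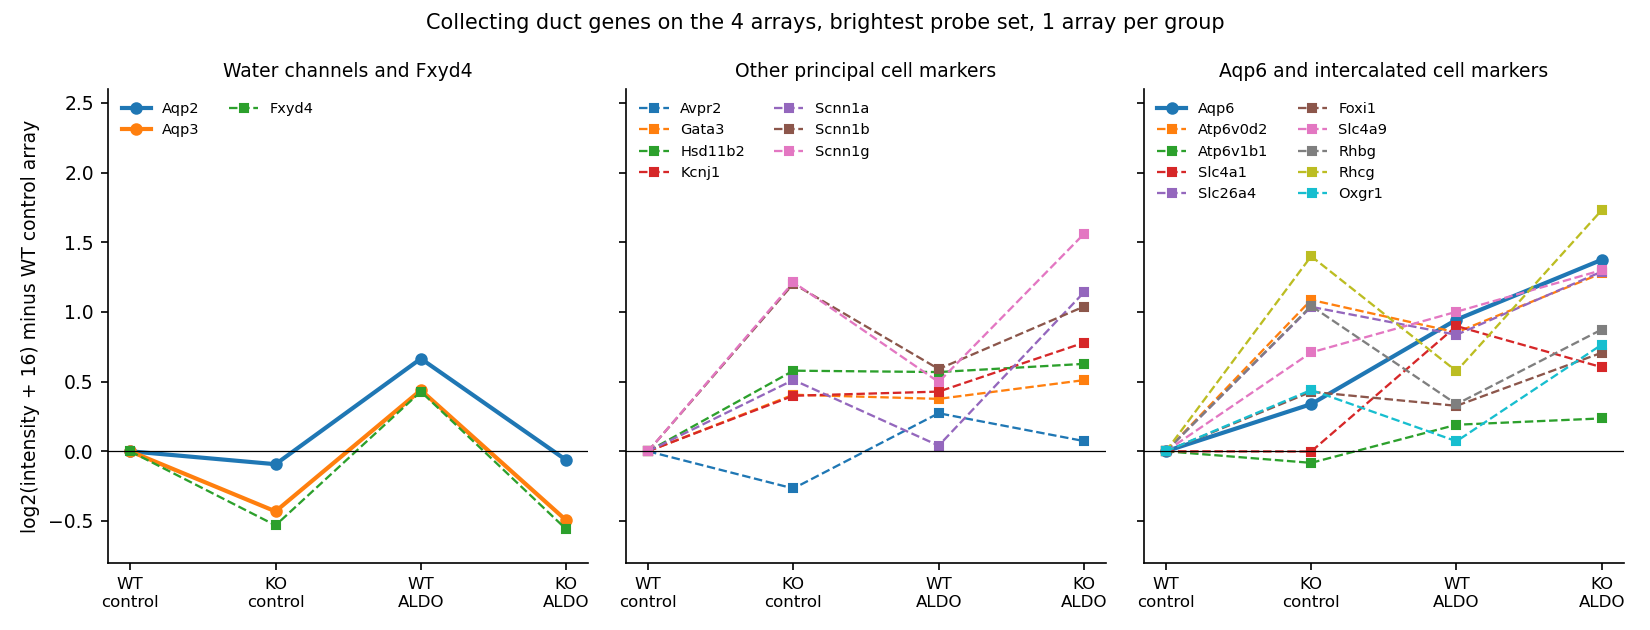
Log2 intensity relative to the WT control array for Aqp2, Aqp3 and Fxyd4 (left), the other 7 bright principal cell markers (middle), and Aqp6 with the 9 bright intercalated cell markers (right), 1 array per group. The left panel peaks in WT ALDO, at 0.66 for Aqp2 and 0.44 for Aqp3, while the sodium channel subunit Scnn1g is above 0 on both KO arrays, by 1.21 in KO control.

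The pathways around Aqp2 were read in the same way. Of 16 vasopressin and cyclic AMP pathway genes, 15 had a probe set and 12 were bright, and none reached 2-fold in any of the 4 comparisons. As only 0.132% to 1.26% of all bright genes did so in a given comparison and direction, that count says nothing about the list. Under ALDO 8 of the 12 were below 0 in KO against WT, with a median of -0.09 that has no stable direction: it was 0.093 with the mean of all probe sets and -0.23 with arrays centred on their medians. The highest were the adenylyl cyclase Adcy6 (0.25) and the stimulatory G protein gene Gnas (0.15), and the lowest the phosphodiesterase Pde4b (-0.40) and the adenylyl cyclase Adcy3 (-0.38). In WT, ALDO went with 8 of 12 above 0 and a median of 0.09 (-0.07 with the mean of all probe sets), with Adcy3 (0.35) and Avpr2 (0.27) highest and Pde4b (-0.46) and the protein kinase A subunit Prkaca (-0.29) lowest. The medians were -0.04 for KO control against WT control and 0.03 for ALDO in KO (-0.04 with centring).

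Genes for the vesicle traffic that carries the Aqp2 protein were measured by 13 bright members, with medians between -0.03 and -0.01. None was at 2-fold in the 4 comparisons, which at those same shares of all bright genes is no result either. The median under ALDO was 0.14 with the mean of all probe sets and -0.16 with centring. Under ALDO the genotype differences ran from -0.33 for the motor Myo5b to 0.49 for the motor Myo1c. Tonicity response and osmolyte genes had 5 bright members of 9 listed. All 5 were above 0 under ALDO in both genotypes, with a median of 0.08 in WT and 0.44 in KO. Of all bright genes 51.9% were above 0 in WT and 52.3% in KO. In WT the count includes Slc38a2 (0.00067) and Slc5a3 (0.021), both smaller than the typical gap between probe sets of a gene. The highest in WT was Sgk1 (0.43), which is also counted below among the aldosterone-linked sodium transport genes. In KO, Slc6a6, the taurine transporter, was highest (0.52) and Nfat5, the transcription factor of the tonicity response, lowest (0.29). Genes of glycerol handling, the other solute of Aqp3 and Aqp7, had 5 bright members, and under ALDO 4 of these were lower in KO with a median of -0.38, the lowest being the mitochondrial glycerol phosphate dehydrogenase Gpd2 (-0.63), and the lipase gene Mgll higher (0.34). That median was 0.12 when all probe sets of each gene were averaged.

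Aldosterone-linked sodium transport genes were above 0 under ALDO in WT in all 13 bright members, where 51.9% of all bright genes were. Their median was 0.43, led by the steroid-induced genes Fkbp5 (0.71) and Tsc22d3 (0.70). The lowest, Atp1b1 (0.0029) and Scnn1a (0.04), were smaller than the typical gap between probe sets of a gene. In KO 10 of 13 were above 0 (median 0.22), with the thiazide-sensitive cotransporter Slc12a3 (0.64) and Scnn1a (0.63) highest. The genotype medians were 0.40 under control treatment, with Scnn1b and Scnn1g of the 13 higher by 2-fold, where 0.967% of all bright genes were, and 0.12 under ALDO, with Scnn1a and Scnn1g, where 1.26% were. The latter median was -0.026 with arrays centred on their medians. In KO ALDO against KO control, Aqp2 and Aqp3 (0.03 and -0.06) were below the median of this list. The list shares Scnn1a, Scnn1b, Scnn1g, Hsd11b2 and Kcnj1 with the principal cell list and Sgk1 with the tonicity list. Comparisons with these lists are therefore not separate observations.

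Genes with a like pattern were taken for each bright aquaporin that spanned at least 0.5 on the log2 scale, by the Euclidean distance between profiles over the 4 arrays, each centred on its own mean. With 4 arrays many genes lie close by, and the distances describe these arrays only. Nearest to Aqp3 was Fxyd4 (distance 0.08), then the transcription factor Klf15 (0.09), Dhtkd1 (0.12), the peroxisomal fatty acid oxidation enzyme Ehhadh (0.12) and Emx2 (0.13). Nearest to Aqp2 were the peroxisomal thiolase Acaa1b (0.08), Angptl4, an inhibitor of lipoprotein lipase (0.12), the pantetheinase Vnn1 (0.13), the caspase Casp9 (0.14) and the sodium glucose cotransporter Slc5a1 (0.17). The distance between Aqp2 and Aqp3 was 0.32, which put Aqp2 at rank 43 for Aqp3 and Aqp3 at rank 89 for Aqp2.

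Nearest to Aqp6 were Tie1, a receptor of endothelial cells (0.18), the pericyte gene Rgs5 (0.19), thrombomodulin, Thbd (0.20), Acer2 (0.23) and Emp1 (0.25). None of the 5 is on the intercalated cell list, and Tie1 is on the endothelial one, whose 8 bright members had ALDO medians of 0.30 in WT and 0.38 in KO. The smooth muscle list (3 of 4 bright) had ALDO medians of 0.73 and 1.19, and its summed intensity, 3178, 4003, 4961 and 9358, had the same order of arrays as Aqp6. So had the vasa recta list, at 1836, 2067, 2949 and 3418, nearly all of it from the endothelial gene Plvap, with differences of 0.68 and 0.73. The principal cell list, at 11936, 15548, 16308 and 18301, had that order too, so it was not particular to vessel and muscle genes. The part of these cells in the Aqp6 values was not tested. Aqp4 had Sult1a1 (0.19), Srbd1 (0.26), Celsr1 (0.32), Cpe (0.37) and Zfp251 (0.39), at larger distances. Aqp7, by the probe set that its other set contradicted, had Hsf2bp (0.03), Nmrk1 (0.06), Evc (0.06), Neu2 (0.07) and Tcl1b3 (0.07). Aqp1 and Aqp11 spanned less than 0.5 and were not matched.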

How the data were processed

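Total RNA from glomeruli was measured on 4 Affymetrix arrays. The deposited values are linear probe set intensities, made with Affymetrix Expression Console per the submitters' processing notes. Its algorithm and background correction are not stated there. After trimming 2% at either end, every array had a mean of 500.003, so the authors' values share a scale that would mask any shift common to all genes. Intensities were taken as log2(intensity + 16), which understates changes of dim genes.

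Of 45101 probe sets, 34945 had 1 symbol and were no Affymetrix control, and 932 had several. Entrez identifiers of 99.4% were found in a RefSeq table of GRCm38.p6, and 0 symbols changed. The brightest probe set by mean stood for a gene, and the brighter 50% (9097 genes) were counted. With 1 array per group no p-value was computed; 2-fold is a descriptive threshold. The members and lists were chosen with earlier results of these data known. Each aquaporin was named with every probe set, each list by its extremes or, with 9 or fewer bright members, freely. Alternatives were pseudocounts of 1 and 64, quantile normalization, median centring, the mean of all probe sets, no filter and the brightest 25%. The steps were tested on simulated data (Python 3.11.15, numpy 2.4.6, pandas 2.3.3).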

Additional observations from a re-analysis of the deposited data

Results flagged for a closer look

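With 1 array per group, no gene could be tested for an outlying array. For 4 bright aquaporins the ALDO difference had opposite signs in WT and KO, and in none of them was the difference tested. The difference between the ALDO effects (KO minus WT) was -1.47 for Aqp4 (0.79 in WT and -0.68 in KO), where the 2 dimmer probe sets had no lower value in KO. It was -0.50 for Aqp3 (0.44 and -0.06), -0.19 for Aqp11 (0.04 and -0.16) and 0.15 for Aqp1 (-0.10 and 0.04). The opposite signs were lost for Aqp11 with the mean of all probe sets (0.19 and 0.018) and for Aqp1 with arrays centred on their medians (-0.14 and -0.024). For Aqp3, Aqp11 and Aqp1 at least 1 of the 2 ALDO differences was smaller than the typical gap between probe sets of a gene.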

How the results depend on the processing

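No paired analysis was possible because each group has 1 array, and for the same reason none could be left out. A value was held to have moved when it shifted by more than the median gap between bright probe sets of a gene (0.13 to 0.17), and a count when it shifted over 1.5 times. Of 35 medians over the bright aquaporins, 28 stayed within that gap. With the mean of all probe sets they were -0.093 for KO control against WT control, -0.16 for KO against WT under ALDO and 0.19 for ALDO in WT. Under ALDO the genotype median was -0.51 with centring, which keeps the same 7 members and shifts them alike. It was -0.59 in the brightest 25%. The ALDO median in WT was 0.035 without the filter and 0.24 in the brightest 25%. With these changes of filter the members counted differ. Of 230 values of single aquaporins 203 stayed within the gap and 0 past 2-fold changed sign, but for Aqp4 the genotype difference under ALDO was 0.09 with the mean of all probe sets. With centring the median of all bright genes was -0.11 and -0.13 in the genotype comparisons, against -0.002 and 0.009 without it.

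Counts of genes at 2-fold or more followed the filter: without it and in the brightest 25% they were 1256 and 33 (main 104) for KO control against WT control, 1284 and 54 (147) for the genotypes under ALDO, 1090 and 18 (62) for ALDO in WT, 1115 and 26 (64) for ALDO in KO, and 2004 and 21 (84) for the difference of effects. Centring changed the split of higher and lower genes from 88 and 16 to 62 and 25 under control treatment and from 115 and 32 to 70 and 52 under ALDO.

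Of 175 list medians 159 stayed within the gap. For the genotypes under ALDO, centring gave -0.23 for the vasopressin list, -0.16 for vesicle traffic, -0.067 for tonicity, -0.52 for glycerol and -0.026 for sodium transport. The mean of all probe sets gave 0.093 for vasopressin, 0.14 for vesicle traffic and 0.12 for glycerol, and the brightest 25% gave 0.26 for tonicity and -0.14 for glycerol. Elsewhere the mean of all probe sets gave glycerol medians of -0.20 (KO against WT control), 0.0061 (ALDO in WT), 0.49 (ALDO in KO) and 0.24 (difference of effects) and a tonicity median of 0.25 for ALDO in KO, and without the filter the tonicity median for KO against WT control was -0.38. Apart from what centring does by construction and members entering or leaving with the filter, the cause was not tested. Dim probe sets, 10 of the 20 aquaporin sets, limit Aqp4, Aqp5, Aqp6, Aqp7 and Aqp8.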

Other observations

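Some other genes of the collecting duct and inner medulla were too dim to be counted. They are given as values, and no direction is read from them. Elf5, a transcription factor of principal cells, read 41.9, 21.3, 82.1 and 19.6 by its brighter probe set (WT and KO under control treatment, then WT and KO under ALDO), the same order of WT ALDO, WT control and then the KO arrays as Aqp3. Its other probe set, at 25.8, 29.6, 2.11 and 6.46, did not have that order. The urea transporter Slc14a2 of the collecting duct and thin limb read 210, 127, 268 and 135, again highest in WT ALDO with both KO arrays low, and the urea transporter Slc14a1 of the vasa recta and red cells read 58.2, 39.1, 92.8 and 41.2. Their second probe sets, at 91.2, 89.3, 89.8 and 70.5 and at 44.1, 40.7, 37.6 and 36.5, did not repeat the high WT ALDO value. Other dim genes of the lists differed in this. By the brighter or only probe set, Bst1 of the thin limb list read 68.8, 79.6, 98.5 and 77.3, highest in WT ALDO. Fst of that list read 97.2, 60.5, 98.2 and 98.7. Insrr of the intercalated cell list read 94.7, 137, 76.6 and 121, lowest in WT ALDO, and the osmolyte gene Slc6a12 read 9.13, 3.02, 6.12 and 7.97. The vasopressin V1a receptor, Avpr1a, was dim and higher on the KO arrays, at 85.0, 207, 119 and 277, and so was its second probe set, at 79.5, 121, 103 and 195.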
